A study of Mus musculus with 4 samples.

Results

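Intraflagellar transport (IFT) and BBSome genes were followed in RNA of mouse testis with and without PIWIL1, a PIWI-clade Argonaute protein of male germ cells. The rule that defines the members uses gene symbols and no measured value, although earlier results of these data were known when it was set. It takes the genes whose symbols start with Dync2, or with Ift or Bbs and then a digit, together with Bbip1, Ttc21b, Wdr19, Wdr35, Traf3ip1, Cluap1, Arl6, Lztfl1, Ttc30b and Ttc26. The rule found 34 of the 22808 gene identifiers in the expression table. Both libraries came from whole testes at postnatal day 23, 1 of genotype Piwil1-/- and 1 of genotype Piwil1+/-, so the comparison is between mice without Piwil1 and mice that keep 1 copy. The sources used here do not state the strain of the mutant mice, the nature of the mutant allele or whether testes were pooled. The series also holds PIWIL1-bound small RNAs from adult wild-type testes, which carry no gene assignment and were not used here.

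IFT carries cargo along the microtubules of cilia and flagella in trains built from the IFT-A and IFT-B complexes. Kinesin-2 motors move the trains towards the tip, and dynein-2 brings them back. The BBSome is a coat-like complex that rides on the trains and moves membrane proteins out of the cilium. In the testis, IFT proteins take part in building the sperm tail and are found at the manchette, a transient microtubule structure of elongating spermatids. Mice lacking Bbs2 or Bbs4 fail to form sperm flagella.

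Levels are given in RPKM, a read number per length of gene and per mapped reads, so that levels of different genes can be compared. The steps between low RPKM values gave library totals of 100254357 for Piwil1-/- and 104014686 for Piwil1+/-. At these totals the implied gene length was a whole number for 41% of 400 genes checked, the largest share among the totals tried. With them, 1 RPKM stood for 100.3 reads per kilobase in Piwil1-/- and 104.01 in Piwil1+/-. The recovered read numbers below depend on these totals. Piwil1 itself was listed at 0 in Piwil1-/- and was at 26.2 RPKM in Piwil1+/-, matching the labels. Germ cells were present in both, with Sycp3, a synaptonemal complex gene of meiosis, at 185 RPKM in Piwil1-/- and 163 RPKM in Piwil1+/-. A gene counted as measured with 1 RPKM or more in either library, which held for 9951 genes and for 33 of the 34 members. Ratios between genotypes are log2 differences of RPKM + 1, Piwil1-/- minus Piwil1+/-. On this scale differences of weakly expressed genes come out too small. Each genotype had 1 library, so the spread between mice is unknown and no test across samples could be made. In whole testis, fewer cells of a type and less RNA per cell cannot be told apart.

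The promoters of many members carried an arm of the X-box, the sequence known to bind RFX transcription factors, which regulate ciliary genes. RefSeq promoters (GRCm38.p6, the assembly of mm10, 250 bases before to 50 after the first start listed in the promoter table) were found for 29 of the 34 members. That start belongs to 1 listed transcript. It was at the outer end of the RefSeq gene span for 11 of the 29 members and inside the span for the other 18, so some windows and upstream sequences lie within the span of their own gene. The X-box arm GTTGCC, searched on both strands, was in 13 of these 29 promoters, or 44.8%. It was in 14.5% of the 7831 promoters of measured genes and in 12.7% of all 27025 promoters. The RFX X-box, an inverted pair of such arms with a short spacer, was in 3 of 29 member promoters (10.3%), against 2.48% of measured genes and 1.59% of all promoters. The full match can contain the arm, and did so in Bbs1, Ift57 and Lztfl1, so these 2 searches are not independent. The cAMP response element TGACGTCA, the site of the spermatid regulator CREM, was in 1 of 29 member promoters (3.45%), that of Ift57, against 3.73% of measured genes. The shorter TGACG, which every full element contains, was in 37.9% of member promoters and 32.7% of those of measured genes. A match describes letters and is not a binding site, and a missing match says nothing of a factor. The 13 member promoters with GTTGCC are shown because GTTGCC was the most frequent of the 4 motifs in member promoters. Each window holds 30 bases of the gene's own strand, 5′ to 3′, with the arm in capitals (GGCAAC where it lies on the other strand), or the whole RFX X-box in Bbs1, Ift57 and Lztfl1.
Bbs1 (chr19:4906605-4906634, minus strand): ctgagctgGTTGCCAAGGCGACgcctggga
Bbs5 (chr2:69647191-69647220, plus strand): gatgtcgtgacaaagccggcgcGTTGCCtt
Bbs7 (chr3:36613493-36613522, minus strand): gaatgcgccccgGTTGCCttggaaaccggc
Dync2h1 (chr9:7177009-7177038, minus strand): catagcgacggagcttGGCAACtgctgagt
Ift140 (chr17:25015965-25015994, plus strand): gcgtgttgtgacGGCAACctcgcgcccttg
Ift172 (chr5:31291097-31291126, minus strand): tgtcgcactcacGTTGCCtgtgcgtcagcg
Ift27 (chr15:78174073-78174102, minus strand): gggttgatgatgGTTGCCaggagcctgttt
Ift57 (chr16:49699199-49699228, plus strand): cgggtctgGTTGCCGTGGTGACcggctgcc
Ift88 (chr14:57424080-57424109, plus strand): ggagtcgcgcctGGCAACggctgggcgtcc
Lztfl1 (chr9:123717767-123717796, minus strand): tttctctGTTGCCATTGGCAACggcaggca
Traf3ip1 (chr1:91494577-91494606, plus strand): gggcgcgcgtccGTTGCCaaggccgcgcgg
Ttc26 (chr6:38381479-38381508, plus strand): cctcccggcggcGTTGCCgtggaaacggag
Wdr35 (chr12:8974021-8974050, plus strand): gatgcgactgggcggcggtgGTTGCCaggc
Positions are counted from the start in the promoter table. In Lztfl1 the X-box began 164 bases before that start, and its outer arms were reverse complements of each other. In Ift57 the X-box shown began 87 bases before the start. In Ttc26 the arm shown began 33 bases before the start, which itself lies 60 bases inside the gene span. In Bbs1 the match began 1 base after the start, which lies 26 bases inside the span. In Bbs5 it began 42 bases after the start, which lies 323 bases inside the span.

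**Figure D1:**
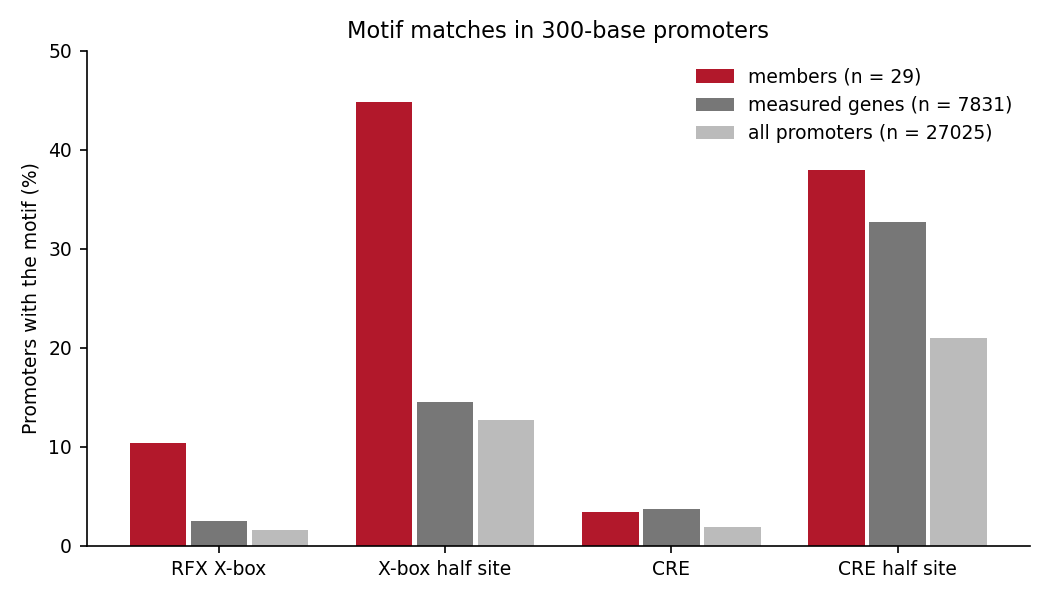
Share of 300-base RefSeq promoters that hold each motif on either strand (vertical axis, percent), for the 29 members with a promoter, the 7831 measured genes and all 27025 promoters. GTTGCC stands at 44.8% in members, against 14.5% in measured genes, while the CRE bars of members and measured genes are close.

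Most members were well expressed in testis of both genotypes. At 10 RPKM or more in either library were 25 of the 33 measured members (75.8%), against 39.98% of all measured genes. The median member was at 27.2 RPKM in Piwil1-/- and 26.01 RPKM in Piwil1+/-, and the median measured gene at 6.30 RPKM in Piwil1-/- and 6.54 RPKM in Piwil1+/-. Together the members made up 0.769% of summed RPKM in Piwil1-/- and 0.715% in Piwil1+/-. Ift172, the largest subunit of the IFT-B peripheral part, was the highest member in both libraries, with 111 RPKM in Piwil1-/- and 108 RPKM in Piwil1+/-. The lowest member was Bbip1, a small BBSome subunit, with 0.293 RPKM in Piwil1-/- and 0.0943 RPKM in Piwil1+/-. These values correspond to at least 3 reads in Piwil1-/- and 1 read in Piwil1+/-. With these smallest possible numbers the counting interval of the ratio ran from 0.250 to 163. Bbip1 overlaps Pdcd4 and Shoc2 in RefSeq and is left out of the counts below. In all, 11 members overlap another RefSeq gene. The libraries were directional, but no source used here says whether counting used strand, and reads of overlapping genes may be shared between them.

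**Figure D2:**
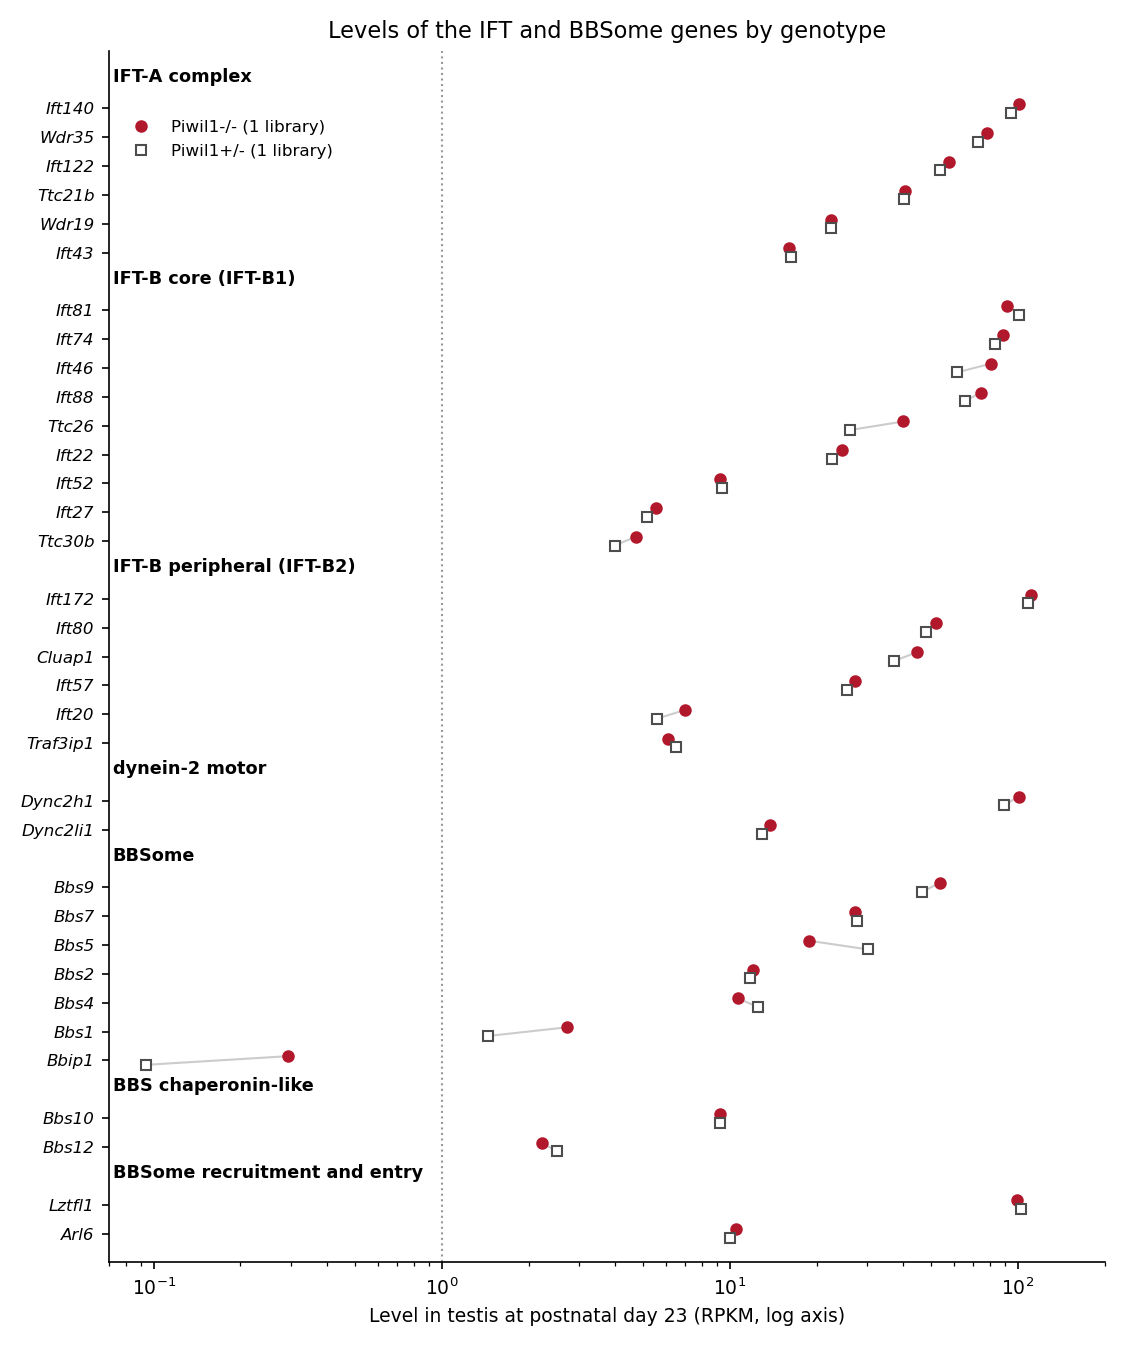
RPKM of all 34 members on a log axis, by complex, with filled circles for Piwil1-/- and open squares for Piwil1+/- (1 library each); the dotted line marks 1 RPKM. Levels span from Bbip1 below 1 RPKM to Ift172 above 100 RPKM, and the symbols of Bbs5, Bbs1 and Ttc26 lie farther apart than those of most other measured members.

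Between genotypes most members differed little, as did most measured genes. Less than 25% higher and less than 20% lower were 29 of 33 measured members (87.9%), against 83.9% of all measured genes. Within 1.1-fold were 21 members (63.6%), against 56.5%. None was at least 2-fold lower or at least 2-fold higher, folds reached by 1.96% and 0.231% of measured genes. At least 1.5-fold lower in Piwil1-/- was 1 member, Bbs5 (3.03%, against 5.21% of measured genes). At least 1.5-fold higher were 2 members, Ttc26 and Bbs1 (6.06%, against 1.42%). At least 20% lower was Bbs5 alone (10.3% of measured genes were). At least 25% higher were 3 members (9.09%, against 5.81%), the third being Ift46. The log2 ratio was above 0 for 23 of 33 members (69.7%), against 51.2% of measured genes, and below 0 for 10 (30.3%, against 48.8%). The median log2 ratio of the members was 0.09, and that of all measured genes 0.0055. These counts rest on 2 libraries and are given as descriptions of them.

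The smallest whole read numbers that fit the RPKM values could be recovered for 26 of the 33 measured members, and give a counting interval of the fold. The 95% interval of the fold, Piwil1-/- over Piwil1+/-, excluded 1 for 17 of these 26 members, 12 of them higher in Piwil1-/- (46.2%, against 26.4% of the 9425 measured genes with reads recovered) and 5 lower (19.2%, against 26.5%). Counting error therefore left small differences visible, but it does not include the spread between animals, which these libraries cannot show. The recovered reads are the smallest that fit the values. Where the true reads are a multiple of them, the interval is wider than counting error, and one that includes 1 might exclude it. PCR copies are not independent molecules, which acts the other way. The intervals concern counting error only. The reads could not be fixed for Ift122, Ift140, Wdr19, Wdr35, Ift172, Dync2h1 and Lztfl1.

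**Figure D3:**
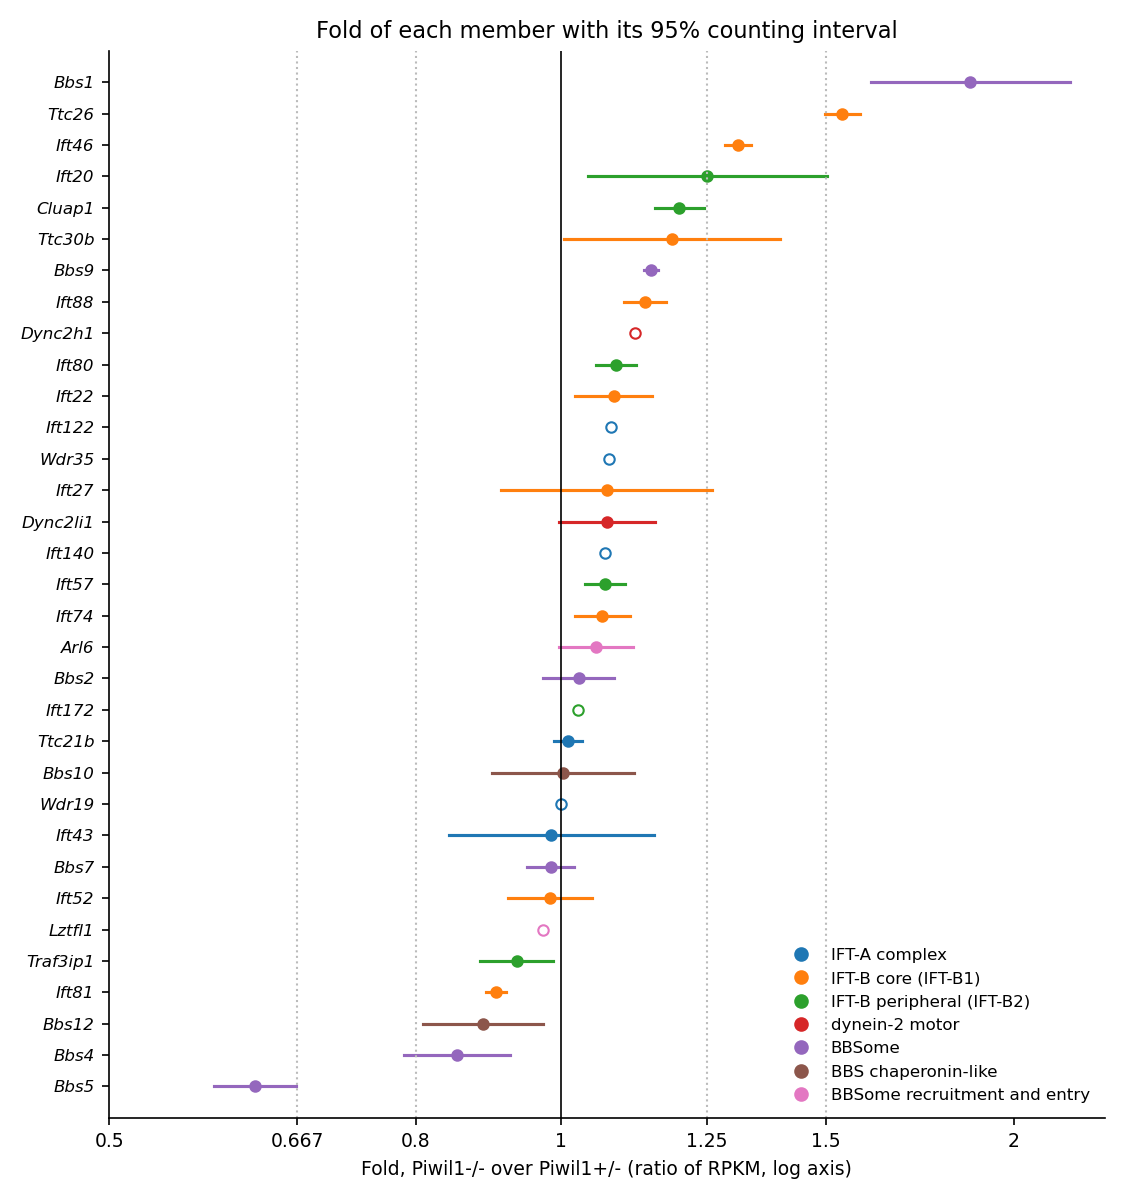
Fold of each measured member (ratio of RPKM, Piwil1-/- over Piwil1+/-, log axis), coloured by complex, with lines for 95% counting intervals and open circles where reads could not be fixed. Bbs1, Ttc26 and Ift46 stand highest and Bbs5 lowest at 0.625, while most members lie closer to 1.

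The IFT-A complex, which returns trains to the cell body and brings membrane proteins into the cilium, was nearly level between genotypes. Its 6 subunits had log2 ratios between -0.02 and 0.11. Ift140 was its highest subunit, with 101 RPKM in Piwil1-/- and 94.5 RPKM in Piwil1+/-. Wdr35 was at 78.3 RPKM in Piwil1-/- and 72.8 RPKM in Piwil1+/-. Ift122 was at 57.7 RPKM in Piwil1-/- and 53.5 RPKM in Piwil1+/-, the highest ratio of the complex. Ttc21b and Wdr19 were even closer to equal, with log2 ratios of 0.014 and -0.0015. Ift43 was lowest in level, with 16.1 RPKM in Piwil1-/- and 16.3 RPKM in Piwil1+/-. The order of the 6 subunits by level was the same in both libraries. Ift122 overlaps Mbd4 in RefSeq, whose own level was 3.46 RPKM in Piwil1-/- and 4.06 RPKM in Piwil1+/-, far below that of Ift122.

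The core of IFT-B, the complex that carries cargo towards the tip, held 2 of the 3 members that were at least 25% higher. Ttc26, the IFT56 subunit, was at 40.01 RPKM in Piwil1-/- and 26.01 RPKM in Piwil1+/-. Its fold was 1.54 (counting interval 1.497 to 1.581, with no fewer than 12888 reads in Piwil1-/- and 8692 in Piwil1+/-), which placed its log2 ratio of 0.60 at rank 130 from the highest among measured genes. Ift46, a core subunit linked to outer dynein arm transport in Chlamydomonas, was at 80.3 RPKM in Piwil1-/- and 61.3 RPKM in Piwil1+/-, a fold of 1.31 (1.28 to 1.34). Neither gene overlaps another RefSeq gene. Ttc26 is on chromosome 6 (38381464 to 38427647) and Ift46 on chromosome 9 (44770456 to 44792714).

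The other core subunits were nearer to equal. Ift88, the subunit mutated in the mouse polycystic kidney model orpk, was at 74.2 RPKM in Piwil1-/- and 65.3 RPKM in Piwil1+/-, a fold of 1.14 (1.1004 to 1.173). Ift81 and Ift74, partners that bind tubulin, lay on different sides of equal level. Ift81 was at 91.4 RPKM in Piwil1-/- and 101 RPKM in Piwil1+/- (fold 0.905, 0.892 to 0.918). Ift74 was at 88.9 RPKM in Piwil1-/- and 83.5 RPKM in Piwil1+/- (fold 1.06, 1.02 to 1.11). Ift22, a small GTPase-like subunit, was 1.08-fold higher (1.02 to 1.15), and Ift52 had a fold of 0.983 (0.922 to 1.05). Ift27, the GTPase that helps the BBSome leave the cilium, was at 5.53 RPKM in Piwil1-/- and 5.16 RPKM in Piwil1+/- with an interval from 0.912 to 1.26. Ttc30b had 4.71 RPKM in Piwil1-/- and 3.98 RPKM in Piwil1+/-. It has close paralogs, Ttc30a1 and Ttc30a2, and how the authors assigned reads shared among them is not given in the sources used here. Ttc30a1 and Ttc30a2 were higher than Ttc30b in both libraries, with log2 ratios of -0.01 and -0.05.

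In the peripheral part of IFT-B, which links the trains to the motor, 5 of 6 members had log2 ratios above 0 and none was 25% higher on that scale. Cluap1, the IFT38 subunit, was at 44.6 RPKM in Piwil1-/- and 37.2 RPKM in Piwil1+/-, a fold of 1.198 (1.15 to 1.24). Ift20, the subunit also found at the Golgi, was at 6.98 RPKM in Piwil1-/- and 5.58 RPKM in Piwil1+/-. Its ratio rested on at least 264 reads in Piwil1-/- and 219 in Piwil1+/-, with an interval from 1.042 to 1.503. Ift80 and Ift57 had folds of 1.09 and 1.07, and Ift172 one of 1.03. Traf3ip1, the IFT54 subunit, was the exception, with 6.08 RPKM in Piwil1-/- and 6.51 RPKM in Piwil1+/- (fold 0.934, 0.883 to 0.988). Cluap1 overlaps a weakly expressed gene, 1700037C18Rik, at 0.425 RPKM in Piwil1-/- and 0.433 RPKM in Piwil1+/-.

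Of dynein-2, the motor that returns the trains, the rule took the heavy chain and a light intermediate chain. Dync2h1, the heavy chain, was at 100.4 RPKM in Piwil1-/- and 89.7 RPKM in Piwil1+/-. Dync2li1, the light intermediate chain, was at 13.8 RPKM in Piwil1-/- and 12.9 RPKM in Piwil1+/- (fold 1.07, 0.996 to 1.15). The heavy chain RNA was thus several times more abundant per length than that of its partner in both libraries. Dync2h1 overlaps Dcun1d5, at 32.5 RPKM in Piwil1-/- and 31.03 RPKM in Piwil1+/-.

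The BBSome held the lowest ratio of the members on either scale, that of Bbs5, and the highest plain RPKM fold, that of Bbs1, while Ttc26 was highest on the log2 scale of RPKM + 1. Bbs5, a subunit that binds phosphoinositide lipids, was at 18.8 RPKM in Piwil1-/- and 30.1 RPKM in Piwil1+/-. Its fold of 0.625 (0.587 to 0.666, with no fewer than 1596 reads in Piwil1-/- and 2648 in Piwil1+/-) was the lowest of the measured members, and its log2 ratio of -0.65 had rank 451 from the lowest among measured genes. Bbs1, the subunit through which ARL6 recruits the complex, was at 2.71 RPKM in Piwil1-/- and 1.45 RPKM in Piwil1+/-. Its fold of 1.87 (1.61 to 2.18, with no fewer than 485 reads in Piwil1-/- and 269 in Piwil1+/-) was the highest plain fold of the measured members, and its log2 ratio of 0.60 had rank 133 from the highest among measured genes. Bbs1 was also among the lowest members by level in both libraries, so this is the fold of a weakly expressed gene. Neither gene overlaps another RefSeq gene.

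The remaining BBSome subunits lay between these. Bbs9, a scaffold subunit, was the highest of them, with 53.4 RPKM in Piwil1-/- and 46.5 RPKM in Piwil1+/- (fold 1.15, 1.13 to 1.16). Bbs7 was at 27.2 RPKM in Piwil1-/- and 27.6 RPKM in Piwil1+/-, and Bbs2 at 12.1 RPKM in Piwil1-/- and 11.7 RPKM in Piwil1+/-. The intervals of both folds included 1. Bbs4, which is needed for sperm flagella in mice, was at 10.7 RPKM in Piwil1-/- and 12.5 RPKM in Piwil1+/- (fold 0.852, 0.785 to 0.924). Across the 6 measured subunits 3 ratios were above 0 and 3 below, with a median of 0.0064.

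Bbs10 and Bbs12 encode chaperonin-like proteins that help assemble the BBSome. Bbs10 was at 9.23 RPKM in Piwil1-/- and 9.21 RPKM in Piwil1+/-. Bbs12 was at 2.22 RPKM in Piwil1-/- and 2.504 RPKM in Piwil1+/- (fold 0.887, 0.809 to 0.972). Arl6, the GTPase that brings the BBSome to membranes, was at 10.5 RPKM in Piwil1-/- and 9.98 RPKM in Piwil1+/-. Lztfl1, a regulator of BBSome entry into cilia, was among the 4 highest members in both libraries, with 99.3 RPKM in Piwil1-/- and 102 RPKM in Piwil1+/-. For these 4 genes the log2 ratios ran from -0.12 to 0.07. Seen by side of the pathway, 18 of 23 IFT and dynein-2 members had ratios above 0, with a median of 0.10. Of 10 measured members of the BBSome, its assembly and its recruitment, 5 did, with a median of -0.0098. Among all measured genes 51.2% were above 0, with a median of 0.0055. The difference between the sides was not tested.

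The 3 members past 1.5-fold stand on different chromosomes. Bbs5 is on chromosome 2 (69646848 to 69667571), Bbs1 on chromosome 19 (4886878 to 4906653) and Ttc26 on chromosome 6. The 250 bases before the start in the promoter table are shown for each, because these members differed most between genotypes. This stretch lies wholly within the gene span for Bbs5 and partly within it for Bbs1 and Ttc26. GTTGCC and TGACG, on either strand, are in capitals.
Bbs1 (chr19:4906628-4906877, minus strand): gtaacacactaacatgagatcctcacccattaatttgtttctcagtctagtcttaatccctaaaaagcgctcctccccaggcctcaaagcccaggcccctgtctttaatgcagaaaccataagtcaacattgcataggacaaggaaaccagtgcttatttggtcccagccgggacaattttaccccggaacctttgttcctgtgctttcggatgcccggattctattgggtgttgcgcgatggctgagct
Bbs5 (chr2:69646921-69647170, plus strand): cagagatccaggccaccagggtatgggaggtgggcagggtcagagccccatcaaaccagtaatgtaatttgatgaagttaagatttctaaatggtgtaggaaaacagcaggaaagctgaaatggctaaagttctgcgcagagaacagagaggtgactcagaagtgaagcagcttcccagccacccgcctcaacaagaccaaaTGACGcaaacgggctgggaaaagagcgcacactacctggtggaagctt
Ttc26 (chr6:38381274-38381523, plus strand): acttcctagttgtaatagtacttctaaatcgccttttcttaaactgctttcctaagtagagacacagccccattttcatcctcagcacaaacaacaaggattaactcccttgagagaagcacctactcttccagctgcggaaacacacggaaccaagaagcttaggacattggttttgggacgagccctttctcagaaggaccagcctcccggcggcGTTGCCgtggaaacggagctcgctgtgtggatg
The upstream sequence of Ttc26 held 1 GTTGCC, that of Bbs5 held 1 TGACG and that of Bbs1 neither. The 13 members with GTTGCC in the whole promoter centred on a log2 ratio of 0.09 (median), and the 15 measured members with a promoter but without it on 0.04. Bbs5, Ttc26 and Bbs1 all belonged to those with it, as did members near equal level such as Lztfl1.

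Most genes near these 3 members were close to equal. On each side the 2 nearest measured RefSeq genes were taken, a step chosen after the members' values were seen. Around Ttc26 the 4 neighbours had log2 ratios between -0.09 and 0.16, and around Bbs1 between -0.08 and 0.21. Dpp3, which lies 575 bp from Bbs1, was at 8.61 RPKM in Piwil1-/- and 9.15 RPKM in Piwil1+/-. Of the 4 neighbours of Bbs5, Fastkd1 alone was past 1.5-fold. Spc25 and Cers6, 440634 bp and 532563 bp away on one side, had log2 ratios of 0.07 and -0.0087. On the other side Klhl41, 2548 bp away, was at 1.42 RPKM in Piwil1-/- and 1.76 RPKM in Piwil1+/-. Fastkd1, a gene of the mitochondrial FASTK family 19248 bp from Bbs5, was at 9.58 RPKM in Piwil1-/- and 5.19 RPKM in Piwil1+/-, a fold of 1.84 (1.76 to 1.94). Bbs5 and Fastkd1 thus stood on opposite sides of equal level.

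The wider pathway was read from lists of related genes. Of the same complexes, 8 genes with symbols outside the rule were measured, among them Ttc8, the BBS8 subunit, and Hspb11, the IFT25 subunit. Past 1.5-fold was Wdr34, the dynein-2 intermediate chain, with 8.95 RPKM in Piwil1-/- and 4.70 RPKM in Piwil1+/- (fold 1.90, 1.74 to 2.08). Its partner Wdr60 was at 22.05 RPKM in Piwil1-/- and 21.9 RPKM in Piwil1+/-. The median log2 ratio of these 8 genes was 0.0054.

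Kinesin-2, the motor towards the tip, had 4 measured genes, none of them 25% higher or 20% lower on the log2 scale. Kif3a was at 41.9 RPKM in Piwil1-/- and 36.5 RPKM in Piwil1+/-, and its partner Kif3b at 34.9 RPKM in Piwil1-/- and 37.6 RPKM in Piwil1+/-. Kif17, a kinesin-2 motor of spermatids, was lowest, at 3.54 RPKM in Piwil1-/- and 4.67 RPKM in Piwil1+/- (log2 ratio -0.32, or a plain RPKM fold of 0.758). Of 15 measured IFT regulators and adaptors none was past these limits. Their ends were Rabl2, a GTPase that binds IFT-B, at a log2 ratio of -0.25, and Ttbk2, a kinase that starts cilium assembly, at 0.30.

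Of 13 measured transition zone genes, which form the gate at the cilium base, 2 were at least 25% higher and none 20% lower. These were Tmem107 (log2 ratio 0.43, plain RPKM fold 1.55) and Iqcb1 (log2 ratio 0.41, plain RPKM fold 1.35). Among the ciliary transcription regulators, Rfx2, an RFX factor needed for spermiogenesis in mice, was at 6.25 RPKM in Piwil1-/- and 6.06 RPKM in Piwil1+/-. Rfx4 was at 9.89 RPKM in Piwil1-/- and 11.1 RPKM in Piwil1+/-, and Rfx3 at 2.71 RPKM in Piwil1-/- and 3.24 RPKM in Piwil1+/-. The regulators' 4 measured genes had a median log2 ratio of -0.15 and none was past the same limits.

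Against other flagellar and germ cell genes, the members' median was close to those of meiosis and of the axoneme. Motile axoneme genes (dynein, radial spoke and tektin genes) showed a median of 0.10 on the log2 scale across 26 measured genes, with 1 at least 1.5-fold lower and none higher. Kinesin motor genes had a median of 0.018 over 29 genes, with 1 at least 1.5-fold lower. Meiotic prophase genes had a median of 0.11 over 17 genes and none past the limits above. Round spermatid genes had a median of -0.55, with 7 of 18 at least 1.5-fold lower and none higher, and elongating spermatid genes one of -1.28, with 10 of 13 lower. The summed level of the meiotic list was 1250 RPKM in Piwil1-/- and 1163 RPKM in Piwil1+/-. For the round spermatid list it was 508 RPKM in Piwil1-/- and 634 RPKM in Piwil1+/-, and for the elongating list 518 RPKM in Piwil1-/- and 791 RPKM in Piwil1+/-. Most of the elongating sum came from Odf2 (348 RPKM in Piwil1-/- and 420 in Piwil1+/-) and Hk1 (93.4 and 156). Tekt4 is in both the axoneme and the elongating list. The spermatid lists were thus lower in Piwil1-/- beside the members, and their part in the members' ratios was not tested.

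**Figure D4:**
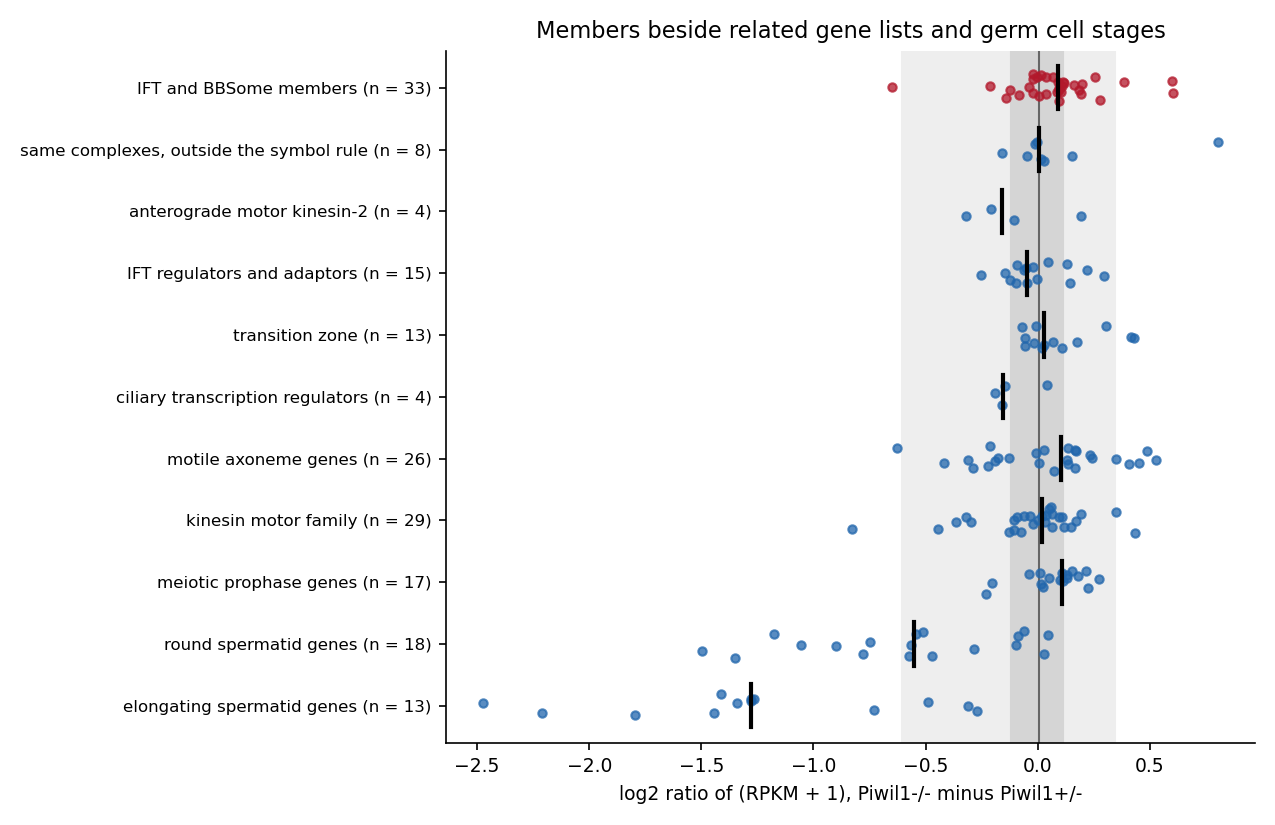
Log2 ratio of (RPKM + 1), Piwil1-/- minus Piwil1+/-, for each measured gene (points, spread vertically for visibility) of the members and of related lists, with bars at the medians; the dark and light bands hold the middle 50% and 90% of all measured genes and the thin line is their median. Members centre near 0.09, and spermatid lists lie to the left.

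Most listed markers of the epididymis and efferent ducts and of multiciliated cells were below 1 RPKM in both libraries. Of 12 epididymis and efferent duct markers 8 were listed at 0 in both libraries, Lcn5, Lcn8 and Crisp1 among them, and 2 were measured. All 12 together summed to 3.89 RPKM in Piwil1-/- and 14.8 RPKM in Piwil1+/-, most of it Cst8, which is also known from testis. Of 10 multiciliated cell markers 3 were measured, and Mcidas and Sntn were listed at 0 in both. All 10 together summed to 30.3 RPKM in Piwil1-/- and 41.0 RPKM in Piwil1+/-. Most of that came from Deup1, at 26.6 RPKM in Piwil1-/- and 37.2 RPKM in Piwil1+/-. Foxj1, the regulator of motile cilia, was at 0.859 RPKM in Piwil1-/- and 1.08 RPKM in Piwil1+/-. Of 13 Sertoli cell markers 7 were measured, and all 13 together summed to 163 RPKM in Piwil1-/- and 158 RPKM in Piwil1+/-. Most of that sum was Clu, at 133 RPKM in both. Of the 7 log2 ratios 6 were above 0 and 1 below, the highest being that of Trf (0.46). Of 8 Leydig cell markers 7 were measured, and all 8 together summed to 140.1 RPKM in Piwil1-/- and 164 RPKM in Piwil1+/-. The part of these cells in the members' levels was not tested.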

How the data were processed

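The authors deposited RPKM values for 22808 gene identifiers in 2 testis libraries, per the file headers; 22444 identifiers matched a symbol. Libraries were directional and made after removal of ribosomal RNA, per the labels' protocols. Bowtie, STAR and mm10 are named, per the submitters' processing notes; no source used here gives the counter, annotation or strand setting. PIWIL1-bound small RNA libraries were not used here.

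Log2 ratios used a pseudocount of 1 RPKM and genes at 1 RPKM or more in either library. The smallest whole reads that fit the RPKM steps were recovered for 96.8% of 16558 genes above 0 in both libraries. They gave exact binomial intervals at 95%. The recovery of read ratios, totals and known folds was tried on simulated data, and the intervals were not. In that trial the search for totals started near the true total, so the step that places this start was not tried. With 1 library a genotype no test across samples was made. Members and lists were chosen with earlier results of these data known. Text names the members and, of the context lists, some of the ends and of the genes past 1.5-fold. Other context genes were named after their values were seen. Alternatives changed the pseudocount, filter, scaling and membership. Python 3.11.15, numpy 2.4.6, pandas 2.3.3 and scipy 1.17.1 were used.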

Additional observations from a re-analysis of the deposited data

How the results depend on the processing

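The 3 members past 1.5-fold, Bbs5, Bbs1 and Ttc26, were past it under all 5 alternatives. The alternatives were a pseudocount of 0.1 RPKM, no filter, a filter in both libraries, trimmed-mean rescaling, and 8 added genes of the same complexes, which added Wdr34. The filters and the added genes leave a member's own ratio unchanged, and a smaller pseudocount moves ratios away from 0. Only the rescaling could have moved a ratio back under the limit, and it was small. Ttc26 and Bbs1 were just past the limit, at log2 ratios of 0.603 and 0.600 before rescaling and 0.596 and 0.595 after it. The sign changed for 1 member, Bbs10, at -0.0024 with rescaling, against 0.0034. The members' median log2 ratio stayed between 0.0702 and 0.0961. Members below 0 numbered 10 of 33, 11 with rescaling and 14 of 41 with the added genes. With a pseudocount of 0.1 the log2 ratio of Bbs1 was 0.86, against 0.60 with 1 RPKM, and 9.86% of all measured genes were past 1.5-fold, against 6.62%. No paired analysis was possible because each genotype had 1 library, and for the same reason no library could be left out. Depth limits Bbip1, which had at least 3 reads in Piwil1-/- and 1 in Piwil1+/-.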
